A study of Mus musculus with 12 samples.

Results

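The comparison set the blood macrophage array named high against the one named low, both from normal C57BL/6 mice, with 1 array each out of 12 arrays in the series. For every gene the value on Normal Blood Macrophage Low was subtracted from the value on Normal Blood Macrophage High, so that a positive log2 difference means more signal on the high array. The series measured flow-sorted cells of brain and blood on the Affymetrix Mouse Gene 1.0-ST array, 8 arrays from mice bearing GL261 glioma and 4 from normal mice. GL261 cells are glioma cells of this mouse strain. The disease state of both arrays is given as normal, while the growth field, which carries the same text for all 12 samples, describes mice of 7 weeks implanted with GL261 and killed 2 weeks later. The study sorted macrophages as CD11b+/CD45high cells without naming a separate gate for blood, and neither the labels nor the methods say what high and low refer to in these names or how many animals were pooled. With 1 array per condition no difference could be tested, no p-value is given, and the number of arrays limits the precision.

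Blood leukocytes that carry CD11b, the integrin chain encoded by Itgam, include neutrophils, monocytes and many natural killer (NK) cells. Neutrophils and monocytes are phagocytes of the innate myeloid lineage, whose genes depend on the transcription factors PU.1 (Spi1) and C/EBP, and which are reached by growth factors through the receptors Csf3r and Csf1r. NK cells are innate lymphocytes that kill infected or transformed cells with perforin and granzymes, and they read their targets with lectin-like receptors encoded by the Klr genes. Monocytes of mouse blood come as a classical type, which carries Ccr2, and a nonclassical type, which depends on Nr4a1 and patrols the vessel wall.

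Most markers of monocytes and macrophages were below background on the high array. Above it were 6 of 34 general myeloid genes and 3 of 15 tissue macrophage markers, next to 11.2% of all genes. A gene below background there is not shown to be absent. The high array showed both NK cell and B cell genes, with 12 of 20 NK and 15 of 24 B cell markers above background. Csf1r, Lyz2, Adgre1, Spi1, Csf3r and Cxcr2, which define monocytes, macrophages or neutrophils, were below background there. The low array showed neutrophil and monocyte genes at high level, also with B cell genes. Both arrays are therefore called by their labels only, as the high array and the low array. In bulk RNA, fewer cells of a type and less RNA per cell cannot be told apart. The corresponding arrays of tumor-bearing mice ran the other way, with the NK genes on the array named low, as described further on.

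Signal differed between both arrays, and background was taken for each as the level under which 95% of 1027 olfactory receptor genes lay. This family was taken as mostly silent in blood cells. Background was 10.09 on the high array and 9.41 on the low array on the log2 scale, and 11.2% and 26.3% of 19938 genes lay above it. On the other 10 arrays background was between 8.93 and 9.43, and 26.3% to 39.1% of genes lay above it. The high array therefore had the least signal over background in the series. The median log2 difference over all genes was 0.39 on the deposited values, 0.24 after each array was centred on its median, 0.30 after quantile normalization and 0.11 after cyclic loess, and 0.64 over the olfactory receptor genes on the deposited values. A difference is given on the deposited values unless quantile normalization is named. Where the dimmer array was below background, the fold is also given as a lower bound, the brighter value against the background of the dimmer array.

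On the deposited values, 871 genes were at least 2-fold higher on the high array (4.37% of all genes) and 2365 were at least 2-fold lower (11.9%). Of the genes past this fold 26.9% were higher, and this share was 10.4% after median centring, with 352 higher and 3045 lower. After quantile normalization 1253 genes (6.28%) were higher and 3074 (15.4%) lower. Most genes that were higher on the deposited values were below background. On the deposited values 96 genes (0.481%) were at least 2-fold higher with the high array above background, against 1728 (8.67%) lower with the low array above background. This balance rested on the scaling, since among genes above background on 1 array or both 730 were higher and 2058 lower after quantile normalization, and 650 and 909 after cyclic loess. Among olfactory receptor genes 9.25% passed the same fold, 94 of them higher and 1 lower, so that a 2-fold difference of a dim gene carries little information here. Between both arrays 202 genes were above background on the high array alone, 3213 on the low array alone and 2025 on both.

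**Figure D1:**
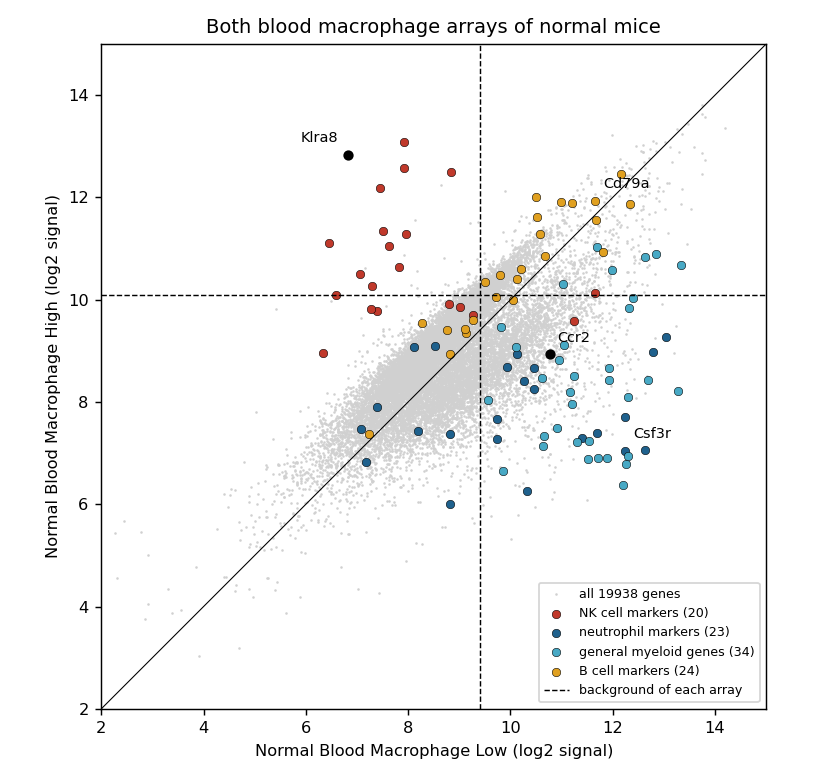
Each point is 1 of 19938 genes, with its log2 signal on Normal Blood Macrophage Low on the x axis and on Normal Blood Macrophage High on the y axis. Dashed lines mark the background of each array (9.41 and 10.09), the solid line marks equal signal, colours mark 4 gene lists, and black points mark Klra8 and Ccr2. Of the 20 NK cell markers 16 lie at least 1 above the line of equal signal and 2 at least 1 below it, 31 of 34 general myeloid and 17 of 23 neutrophil genes lie at least 1 below it, and 3 of 24 B cell markers at least 1 above it.

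The genes with the largest differences in favour of the high array were those of NK cells. By the deposited values the first 12, among genes above background on their brighter array, were Klra8, Klri2, Klrb1c, Ncr1, Gzma, Gzmb, Ccl5, Klra3, Klra6, Eomes, Klrd1 and Nkg7, and quantile normalization kept 11 of the 12, with Klre1 in place of Eomes. Of 20 NK cell markers 12 were above background on the high array and 2 on the low array, next to 11.2% and 26.3% of all genes. The list's median level was 10.38 on the high array and 7.72 on the low array, and its median log2 difference was 3.15, or 3.57 after quantile normalization, where the median of all genes was 0.39 and 0.30. At least 2-fold higher were 16 members, 11 of them above background on the high array, and 2 members were at least 2-fold lower. Of all genes 4.37% were higher, 0.481% with the high array above background, and 11.9% were lower.

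Klra8, which encodes the activating receptor Ly49H of C57BL/6 NK cells, had the largest difference of all genes considered. Its log2 level was 12.83 on the high array and 6.83 on the low array, a difference of 6.00, or 6.46 after quantile normalization, and at least 10.7-fold against the low array's background. Klri2, a receptor of the same gene cluster, was at 13.08 and 7.92, a difference of 5.16 and at least 12.7-fold. Klrb1c, the NK1.1 antigen by which NK cells of this strain are commonly recognised, was at 12.18 and 7.44, at least 6.81-fold. Ncr1 encodes the activating receptor NKp46, and its level was 11.12 on the high array and 6.45 on the low array, a difference of 4.67 and at least 3.26-fold. All 4 genes were therefore well above background on the high array and below it on the low array.

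The killing machinery followed the receptors in part. Gzma, encoding granzyme A, was at 12.58 on the high array and 7.92 on the low array, a difference of 4.67 and at least 9.02-fold. Gzmb, encoding granzyme B, was at 11.35 and 7.50, and Prf1, encoding the pore-forming perforin, at 10.64 and 7.82. Both were above background on the high array alone, with bounds of at least 3.82-fold for Gzmb and 2.34-fold for Prf1. Nkg7, a granule membrane protein, was at 11.04 and 7.63, and Ccl5, a chemokine stored by cytotoxic lymphocytes, at 12.49 and 8.84. Ctsw, a cathepsin of cytotoxic cells, was at 10.22 and 8.18, a difference of 0.81 against the low array's background.

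Genes that serve lytic granules in many cell types ran the other way. Lamp1, a lysosomal membrane protein, was at 8.38 on the high array and 11.44 on the low array, Rab27a, which docks granules, at 9.58 and 11.41, and Stxbp2, which takes part in granule fusion, at 9.57 and 11.14. Across the 21 cytotoxic granule and death ligand genes the median difference was therefore 0.62, or -0.077 over members above background on 1 array or both, with 9 members at least 2-fold higher and 5 at least 2-fold lower. Of these, 5 in each direction were above background on their brighter array, where 0.481% of all genes were higher and 8.67% lower in this way.

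Transcription factors and a cytokine receptor of NK cells were also higher on the high array. Eomes, a T-box factor of NK maturation, was at 10.50 on the high array and 7.05 on the low array, at least 2.13-fold. Its relative Tbx21 (T-bet) was at 9.78 and 7.39, and so below background on both arrays, although quantile normalization gave a difference of 2.45. Il2rb, the receptor chain shared by interleukin-2 and interleukin-15, was at 10.27 and 7.29, a difference of 2.98. Id2, a helix-loop-helix factor that innate lymphocytes require, was at 10.20 and 8.98. Against the low array's background the differences were 0.86 for Il2rb and 0.79 for Id2. Of 31 transcription factors of NK and myeloid cells, Eomes and Id2 were the 2 at least 2-fold higher and above background on the high array, and 9 were at least 2-fold lower with the low array above background. For all genes these shares were 0.481% and 8.67%. The 2 members of the NK list that were lower on the high array were S1pr5, a sphingosine-1-phosphate receptor that lets NK cells leave the marrow and is also used by nonclassical monocytes, at 9.58 and 11.25, and Cd244a, the receptor 2B4, at 10.12 and 11.66.

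Among the killer cell lectin-like receptors 20 of 34 listed genes had a probe set of their own. Of these, 8 were above background on the high array and 1 on the low array, next to 11.2% and 26.3% of all genes. Their median difference was 3.05, or 3.27 after quantile normalization. The Klra family encodes the Ly49 receptors, most of which bind class I molecules. Klra3 (Ly49C) was at 12.25 on the high array and 8.64 on the low array, and Klra6 (Ly49F) at 10.62 and 7.15. Klrd1, the CD94 chain that pairs with the Klrc products, was at 11.55 and 8.13, and Klre1, another partner chain, at 11.28 and 7.96. Klrb1b, an inhibitory relative of Klrb1c, was at 10.56 and 8.18.

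Several receptors of the same family fell short of the high array's background in spite of large differences. Klrc1 (NKG2A) was at 9.81 on the high array and 5.41 on the low array, a difference of 4.40. Klrc2 was at 9.97 and 6.50, Klrk1 (NKG2D) at 10.09 and 6.59, and Klrg1 at 9.64 and 7.09. These 4 genes were below background on both arrays, so that no bound on their fold can be given. Klrb1a (9.40 and 7.50), Klrb1f (9.15 and 7.31), Klrc3 (7.80 and 5.02) and Klra5 (7.42 and 6.36) were likewise at least 2-fold apart and below background on both. Klra17, Klri1 and Klrh1 were less than 2-fold apart and below background on both arrays.

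Klra genes are near-identical copies, and probe sets that name several of them show the same direction. Of 4 such probe sets, 1 naming 7 genes (Klra8, Klra3 and Klra6 among them) was at 12.12 on the high array and 7.61 on the low array. Another, which names 6 genes including Klra1, Klra4 and Klra7 and none of the 3 above, was at 10.62 and 6.63. The remaining 2 were 4.29 and 3.52 higher on the high array. How much of the signal of Klra3, Klra6 and Klra8 comes from each copy is uncertain.

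Klra2 was the exception in the family. It encodes Ly49B, which is known from myeloid cells, and its level was 6.73 on the high array and 10.86 on the low array, a difference of -4.13 and at least 1.71-fold in favour of the low array. In RefSeq gene order on chromosome 6, from Klrb1a to Klra2, 39 genes were measured, of which 17 exceeded background on 1 array or on both. Of the 39, 9 were at least 2-fold higher with the high array above background, where 0.481% of all genes were. At least 2-fold lower with the low array above background were 3 of the 39, where 8.67% of all genes were. The 3 lower genes say little by number alone. Among the 9 was the microRNA gene Mir680-1 (11.76 and 10.74), and the rest were Klr genes. The 3 lower genes were Clec12a and Clec7a, myeloid lectins that lie between the Klrb1 and Klrd1 genes, and Klra2 at the end of the stretch. Clec7a, which encodes the beta-glucan receptor Dectin-1, was at 6.94 and 12.31, and Clec12a, an inhibitory lectin, at 7.49 and 10.91. Neighbouring genes of this stretch therefore differed in opposite directions.

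**Figure D2:**
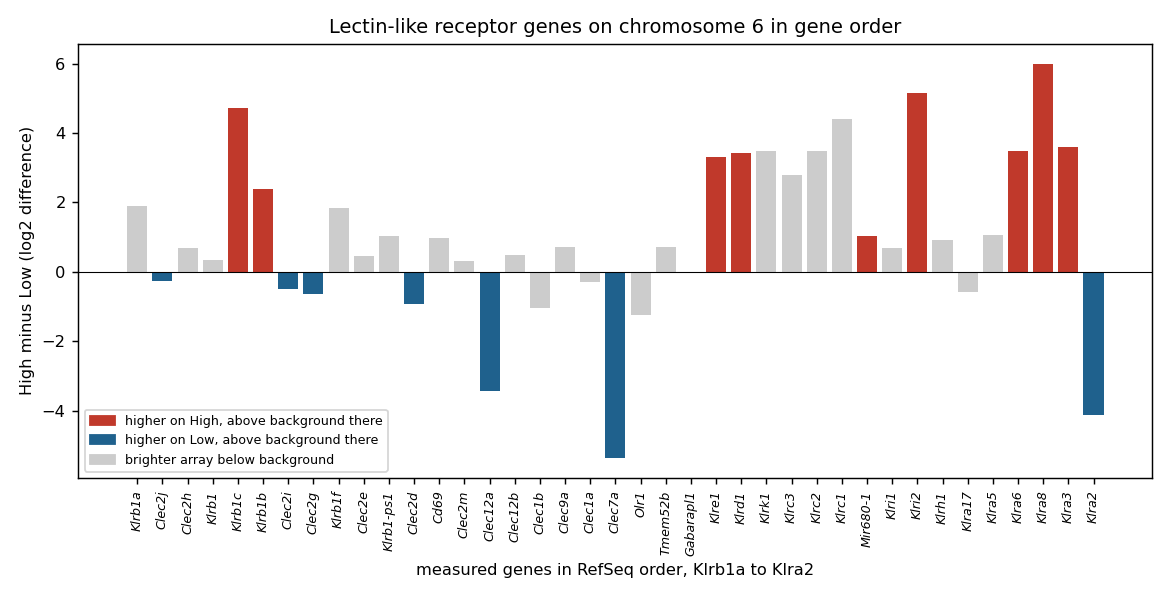
Bars give the log2 difference, high minus low, on the deposited values for the 39 measured genes from Klrb1a to Klra2 in their RefSeq order. Red and blue bars are genes above background on their brighter array, and grey bars are below it. The blue bars of Clec12a (-3.43), Clec7a (-5.37) and Klra2 (-4.13) stand among red bars of Klr genes, of which Klra8 is the tallest.

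The low array carried the myeloid genes. The 12 largest differences in its favour on the deposited values were those of Csf1r, Cxcr2, Cebpb, Cd300ld, Clec7a, Csf3r, Lyz2, Fcgr4, Adgre4, Ifi207, Il1rn and Lilrb4a, and quantile normalization kept 11 of the 12, with Serpinb10 in place of Lilrb4a. All were below background on the high array. Of the 83 measured genes in the 4 myeloid lists (neutrophil, classical monocyte, nonclassical monocyte and general myeloid), 69 were at least 2-fold lower on the high array with the low array above background, and 0 were higher in this way, where 8.67% of all genes were lower and 0.481% higher.

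Csf3r, the receptor for granulocyte colony-stimulating factor, was at 7.04 on the high array and 12.25 on the low array. The difference was -5.21, or -5.45 after quantile normalization, and at least 4.46-fold against the high array's background. Cxcr2, the chemokine receptor that draws neutrophils from the marrow, was at 7.05 and 12.62, a difference of -5.57 and at least 5.79-fold. S100a8 and S100a9 encode calprotectin, the most abundant cytosolic protein of neutrophils. S100a8 was at 8.98 and 12.78, and S100a9 at 9.27 and 13.04, at least 7.72-fold. The granule genes Mmp9 (7.70 and 12.23), Mmp8 (7.39 and 11.69), Lcn2 (7.29 and 11.41) and Ngp (6.25 and 10.32) ran the same way, and their bounds were between 1.17-fold for Ngp and 4.41-fold for Mmp9. Of 23 measured neutrophil markers 0 were above background on the high array and 15 on the low array. For all genes these shares were 11.2% and 26.3%, and at 11.2% the 0 says little by itself. The median difference was -2.06, or -2.30 after quantile normalization. No member was at least 2-fold higher on the high array, where 4.37% of all genes were, so this 0 says little too. At least 2-fold lower were 17, 15 of them above background on the low array, next to 11.9% and 8.67% of all genes.

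Classical monocyte genes were on the low array as well. Ccr2, the receptor by which these cells leave the marrow, was at 8.93 on the high array and 10.77 on the low array, a difference of -1.84, or -2.10 after quantile normalization, and at least 1.60-fold. Fn1, encoding fibronectin, was at 8.23 and 12.28, Gda, guanine deaminase, at 8.72 and 11.84, and F13a1, a chain of coagulation factor XIII, at 7.77 and 10.77. Against the high array's background the differences were -2.19 for Fn1, -1.75 for Gda and -0.68 for F13a1. The only member above background on the high array was Ms4a6c, a membrane protein of monocytes, at 10.16 there and 12.23 on the low array. For all genes 11.2% were above background on the high array. Over the 13 measured members the median difference was -2.06, and 11 were at least 2-fold lower on the high array, next to 11.9% of all genes. Ly6c1 and Ly6c2 have only probe sets that name several genes and were not analysed here.

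The nonclassical monocyte list was above background on the low array in full, 13 of 13 members, and in 3 of 13 on the high array. For all genes these shares were 26.3% and 11.2%. All 13 were at least 2-fold lower on the high array, next to 11.9% of all genes, and the median difference was -2.03. Nr4a1, the orphan nuclear receptor that these monocytes need, was at 9.49 on the high array and 13.24 on the low array, at least 8.88-fold. Ace, angiotensin-converting enzyme, was at 8.18 and 12.62, and Treml4, a receptor of the TREM family, at 7.37 and 11.99. Pparg, a lipid-sensing nuclear receptor, was at 8.08 and 11.74. Cx3cr1, the fractalkine receptor, was at 9.63 and 11.28. The 3 members above background on the high array were Itgal, the alpha chain of LFA-1 that lymphocytes share, at 10.65 and 12.68, Spn, encoding CD43, at 10.20 and 11.75, and Itgax, encoding CD11c, at 10.11 and 11.64.

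Genes common to monocytes, macrophages and neutrophils had the lowest list median on the deposited values and after quantile normalization, though not after cyclic loess, where the neutrophil median was -2.39 and theirs -2.21. All 34 measured members were above background on the low array and 6 on the high array, next to 26.3% and 11.2% of all genes. The median level was 8.32 on the high array and 11.62 on the low array, and the median difference was -3.23, or -3.47 after quantile normalization, with 31 members at least 2-fold lower on the high array. Csf1r, the receptor that monocytes and macrophages require, had the largest difference of all genes considered in this direction. It was at 6.38 and 12.21, a difference of -5.83 and at least 4.35-fold. Lyz2, lysozyme, was at 8.21 and 13.28, at least 9.15-fold, and Mpeg1, a pore-forming protein of macrophages, at 8.42 and 12.69. Cebpb was at 6.80 and 12.26 and Spi1 at 7.25 and 11.53, so that neither of these myeloid transcription factors was above background on the high array.

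The 6 general myeloid genes above background on the high array were still lower there. Fcer1g and Tyrobp encode signalling adaptors that NK cells and myeloid cells both use. Fcer1g was at 10.89 on the high array and 12.84 on the low array, and Tyrobp at 10.84 and 12.63. Cybb, a subunit of the phagocyte oxidase, was at 10.68 and 13.33, and Cyba, its partner, at 10.57 and 11.99. Lyz1, a lysozyme gene and close copy of Lyz2, was at 11.04 and 11.70, and how probes split signal between such copies is uncertain. Ifi30, a lysosomal thiol reductase, was at 10.30 and 11.02. The gene for CD11b, Itgam, was at 9.83 on the high array, under background, and 12.32 on the low array. On the other 11 arrays its level was between 11.85 and 12.83. Ptprc, encoding CD45, was above background on both, at 12.13 and 12.89, and between 11.38 and 13.44 on the other 11 arrays than the high one.

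The short stretch before each gene's start is shown for a receptor pair from each side, since the genes of each side were high together. The sequences are RefSeq promoters of GRCm38.p6, 300 bases each that run from before the start to just after it, 5′ to 3′ on the gene's strand, and that build is not known to be the one behind the arrays. They belong to Klra8 (chr6:130129849-130130148, minus strand), Ncr1 (chr7:4337465-4337764, plus strand), Csf3r (chr4:126024409-126024708, plus strand) and Cxcr2 (chr1:74153744-74154043, plus strand). Capitals mark 4 short words read on both strands: GAGGAA, found in sites of PU.1 and other ETS factors, TGTGGT, found in RUNX sites, TTGCNNAA, found in C/EBP sites, and AGGTGT, found in T-box sites.
Klra8: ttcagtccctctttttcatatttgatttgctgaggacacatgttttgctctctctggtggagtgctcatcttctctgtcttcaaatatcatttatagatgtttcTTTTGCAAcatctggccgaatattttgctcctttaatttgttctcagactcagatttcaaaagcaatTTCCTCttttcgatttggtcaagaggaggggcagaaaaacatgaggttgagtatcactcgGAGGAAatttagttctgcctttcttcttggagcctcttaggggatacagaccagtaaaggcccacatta
Ncr1: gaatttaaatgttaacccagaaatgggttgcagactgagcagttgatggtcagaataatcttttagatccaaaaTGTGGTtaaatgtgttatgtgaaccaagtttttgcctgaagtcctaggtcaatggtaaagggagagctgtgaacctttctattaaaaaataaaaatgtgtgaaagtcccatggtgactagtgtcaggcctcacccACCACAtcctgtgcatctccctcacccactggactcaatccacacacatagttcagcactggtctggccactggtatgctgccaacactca
Csf3r: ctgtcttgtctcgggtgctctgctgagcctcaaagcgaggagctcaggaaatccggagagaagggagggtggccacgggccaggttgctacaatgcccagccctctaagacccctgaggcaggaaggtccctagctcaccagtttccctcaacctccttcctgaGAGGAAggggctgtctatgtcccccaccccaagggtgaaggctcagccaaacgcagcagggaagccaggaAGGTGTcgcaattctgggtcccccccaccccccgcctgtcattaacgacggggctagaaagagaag
Cxcr2: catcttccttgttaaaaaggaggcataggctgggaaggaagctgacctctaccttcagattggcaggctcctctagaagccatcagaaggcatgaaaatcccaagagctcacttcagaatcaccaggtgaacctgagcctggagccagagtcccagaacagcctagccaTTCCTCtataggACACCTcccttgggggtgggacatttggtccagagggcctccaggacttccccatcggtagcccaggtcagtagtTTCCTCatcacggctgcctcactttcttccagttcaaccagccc

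The Klra8 promoter held 2 matches to GAGGAA and 1 to TTGCNNAA, and the Ncr1 promoter 2 to TGTGGT. Csf3r held 1 match to GAGGAA and 1 to AGGTGT, and Cxcr2 held 2 and 1. No words overlapped in these windows. Over 27025 promoters, 1 a gene, GAGGAA was present in 28.3%, TGTGGT in 16.9%, TTGCNNAA in 10.8% and AGGTGT in 13.9%. Of 17 NK, lectin-like and cytotoxic genes that were at least 2-fold higher and above background on the high array, 12 had a promoter in the table, and GAGGAA was present in 8, TGTGGT in 7, and TTGCNNAA and AGGTGT in 3 each. Of 69 myeloid genes at least 2-fold lower on the high array and above background on the low array, 55 had a promoter there, and GAGGAA was present in 27, TGTGGT in 14, TTGCNNAA in 10 and AGGTGT in 5. Several of the 17 genes are related Klr genes, so their promoters are not independent, and no difference from all promoters was tested. These are matches of letters, and no factor's binding was measured.

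**Figure D3:**
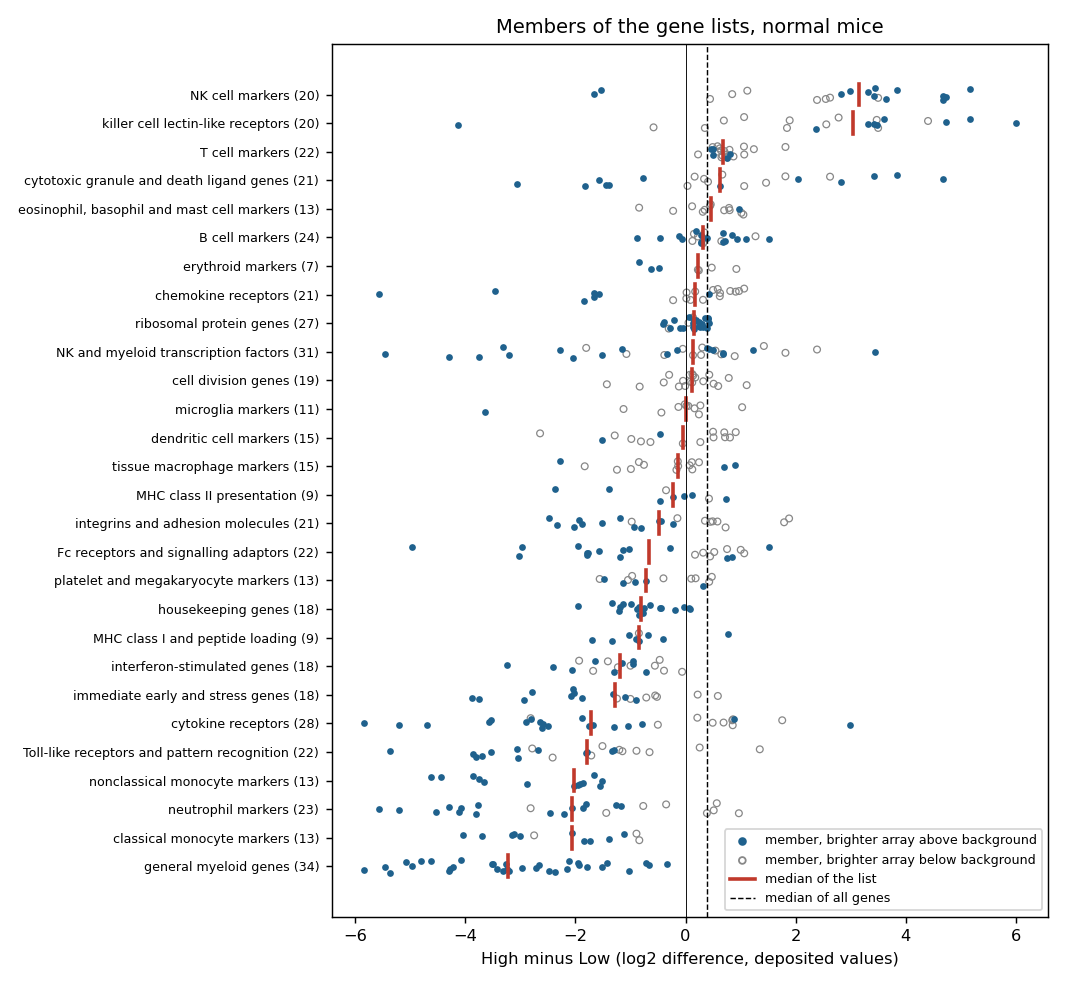
Each point is a measured member of a gene list (number in brackets), placed by its log2 difference, high minus low, on the deposited values. Filled points are above background on their brighter array, red bars are list medians, and the dashed line is the median of all genes (0.39). NK cell markers and killer cell lectin-like receptors have medians above 3, the 4 myeloid lists have medians between -2.03 and -3.23, and B cell markers, ribosomal protein genes and erythroid markers lie near the median of all genes.

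B cell genes were on both arrays. Of 24 measured B cell markers 15 were above background on the high array and 17 on the low array, next to 11.2% and 26.3% of all genes. Their median difference was 0.32, next to 0.39 for all genes, or 0.62 next to 0.30 after quantile normalization. Cd79a, a signalling chain of the B cell receptor, was at 11.94 on the high array and 11.66 on the low array. The 2 members that were at least 2-fold higher and above background on the high array were Fcmr, an IgM Fc receptor (12.01 and 10.50), and Ms4a1, encoding CD20 (11.62 and 10.52), on the deposited values, and quantile normalization gave 7 such members. Pax5, the factor that holds B cell identity, was at 11.89 and 11.21. The part of B cell RNA in the other differences was not tested.

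T cell genes were mostly below background. Of 22 measured T cell markers 5 were above background on each array, and the median difference was 0.69. This was a larger share than the 11.2% of all genes on the high array and a smaller one than the 26.3% on the low array. Cd3e, a chain of the T cell receptor complex, was at 10.23 on the high array and 9.77 on the low array, and Cd8a at 10.35 and 9.54. On the deposited values 0 T cell markers were at least 2-fold apart with the brighter array above background, and 2 were higher in this way after quantile normalization. At deposited shares of 0.481% higher and 8.67% lower for all genes, the 0 says little of the list.

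Lists of other cells showed smaller differences. Of 13 platelet and megakaryocyte markers 1 was above background on the high array and 6 on the low array, with a median difference of -0.72. Ppbp, a chemokine of platelet granules, was at 9.59 and 10.72. Of 7 erythroid markers 3 were above background on each array and 4 were below it on both. Alas2, the first enzyme of heme synthesis in red cell precursors, was at 12.23 and 12.71. Of 11 microglia markers 0 were above background on the high array and 1 on the low array, Cst3 (8.85 and 12.49), which many phagocytes also use. At 11.2% of all genes on the high array, the 0 says little of the list. Dendritic cell markers above background numbered 2 of 15 on each array, and those of eosinophils, basophils and mast cells 1 of 13 on the high array and 2 on the low array, near or under the 11.2% and 26.3% of all genes. Of 15 tissue macrophage markers 3 were above background on the high array and 2 on the low array. Apoe, a lipid carrier made by macrophages, was at 10.30 and 12.58, while Fcna, a ficolin, was at 10.25 and 9.34 and Marco, a scavenger receptor, at 10.22 and 9.52.

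Receptors by which phagocytes sense microbes followed the myeloid genes. Of 22 Toll-like and other pattern recognition receptors 0 were above background on the high array and 12 on the low array. For all genes these shares were 11.2% and 26.3%, and at 11.2% the 0 says little by itself. The median difference of the list was -1.79. Tlr13, which reads bacterial ribosomal RNA, was at 7.28 on the high array and 11.13 on the low array, and Tlr7, which reads single-stranded RNA, at 8.65 and 11.71. Nlrp3, the sensor of the inflammasome, was at 6.62 and 10.32, and Myd88, the adaptor shared by most Toll-like receptors, at 9.15 and 11.83. Against the high array's background the differences were -1.04 for Tlr13, -1.62 for Tlr7, -0.23 for Nlrp3 and -1.74 for Myd88. Among 28 cytokine receptor and antagonist genes 16 were at least 2-fold lower on the high array with the low array above background, and Il2rb was the 1 that was higher in this way. Of all genes 8.67% were lower and 0.481% higher in this way. Tnfrsf1b, a receptor for tumor necrosis factor, was at 9.26 and 12.83, and Il17ra at 9.54 and 12.34.

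Fc receptors of myeloid cells were lower on the high array, and so was one that NK cells share. Fcgr4, an activating receptor for IgG on monocytes and neutrophils, was at 6.91 on the high array and 11.88 on the low array, and Fcgr3 (CD16), which NK cells share with myeloid cells, at 8.19 and 11.16. Of the 22 Fc receptor and adaptor genes 11 were at least 2-fold lower on the high array with the low array above background, and 1, Fcmr, was higher, where 8.67% of all genes were lower and 0.481% higher in this way. Of 21 integrin and adhesion genes 7 were at least 2-fold lower in this way and 0 higher. Itgb2, the beta chain of CD11b/CD18 and LFA-1, was above background on both arrays, at 10.55 and 12.42. Of 21 chemokine receptors 6 were lower in this way and 0 higher. At a share of 0.481% for all genes, the 0 higher in the last 2 lists says nothing of their members.

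Some response genes were lower on the high array. Of 18 interferon-stimulated genes 6 were at least 2-fold lower with the low array above background, next to 8.67% of all genes and 5 of 18 housekeeping genes, and 12 were not. The median difference was -1.19. Oasl2, an antiviral protein, was at 7.31 on the high array and 10.55 on the low array, and Irf7, which amplifies the interferon response, at 8.81 and 10.88. Against the high array's background the differences were -0.46 for Oasl2 and -0.79 for Irf7. Of 18 immediate early and stress genes 10 were lower in this way, with a median difference of -1.28. Dusp1, a phosphatase of MAP kinases, was at 8.38 and 12.26, and Fos at 8.35 and 11.28.

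Antigen presentation genes were closer. Of 9 MHC class II presentation genes 5 were above background on the high array and 7 on the low array, and the median difference was -0.22 on the deposited values and 0.30 after quantile normalization, so its sign depended on the scaling. H2-Aa, a class II alpha chain, was at 11.83 and 11.71, and H2-Ab1 at 11.36 and 11.58. Ctss, the protease that trims the invariant chain, was at 10.04 on the high array and 12.40 on the low array. For 9 genes of MHC class I and peptide loading the median difference was -0.85. B2m, the light chain of class I molecules, was at 13.36 and 14.21.

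Genes that all cells use showed how far scaling moved the values. The 27 ribosomal protein genes had a median difference of 0.16 on the deposited values, 0.63 after quantile normalization and 1.39 after cyclic loess. None was 2-fold apart on the deposited values, and 23 were above background on the high array and 25 on the low array. The 18 housekeeping genes had a median difference of -0.81 on the deposited values, -0.39 after quantile normalization and 0.51 after cyclic loess. Of these, 5 were at least 2-fold lower with the low array above background, and 3 after quantile normalization. Ppia, cyclophilin A, was at 12.02 and 11.95, and Actb at 12.87 and 13.75. Among the 2025 genes above background on both arrays, 31 were at least 2-fold higher and 132 lower on the deposited values, but 593 higher and 69 lower after quantile normalization. The balance of higher and lower calls among genes present on both arrays therefore depended on the scaling, while the NK and myeloid lists kept their direction. Of 19 cell division genes 0 were above background on the high array and 1 on the low array, under the 11.2% and 26.3% of all genes.

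The high and low names ran the opposite way in tumor-bearing mice. Tumor Blood Macrophage High and Tumor Blood Macrophage Low share no array with the normal pair. Klra8 was at 6.70 on Tumor Blood Macrophage High and 13.24 on Tumor Blood Macrophage Low, and Csf3r at 13.33 and 6.15. The median difference of the NK cell markers, 3.15 in normal mice, was -5.03 in tumor-bearing mice, and that of the neutrophil markers, -2.06 in normal mice, was 3.66. For general myeloid genes the medians were -3.23 and 3.03, and for nonclassical monocyte markers -2.03 and 1.53. B cell markers were at 0.32 in normal mice and -1.68 in tumor-bearing mice. With 1 array per condition the difference between both pairs was not tested.

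Gene by gene, the differences of both pairs were inversely related. Across all 19938 genes Pearson's r was -0.65 and Spearman's rho -0.44. These describe genes, which are not independent replicates. In tumor-bearing mice 1339 of the 19938 genes were at least 2-fold higher on Tumor Blood Macrophage High and 1031 at least 2-fold lower. Of 2365 genes at least 2-fold lower on the high array in normal mice, 978 were at least 2-fold higher on the high array in tumor-bearing mice and 5 were lower in both, and of 871 higher in normal mice 161 were lower in tumor-bearing mice and 4 higher in both. Among the 167 genes of the lists and the largest differences that were at least 2-fold apart in normal mice with the brighter array above background, 127 were at least 2-fold apart the other way in tumor-bearing mice. The single gene 2-fold apart the same way was S1pr5, at 10.34 on Tumor Blood Macrophage High and 11.39 on Tumor Blood Macrophage Low. The 167 genes were chosen with earlier results of these data known or by size of difference, so their counts only describe them.

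The whole profiles gave this grouping only in part. Over all genes the high array had its highest correlation, 0.73, with Tumor Blood Macrophage Low, 0.69 with its own low array and 0.52 with Tumor Blood Macrophage High. The low array had its highest correlation, 0.91, with Tumor Blood Macrophage High and 0.83 with Tumor Blood Macrophage Low. Tumor Blood Macrophage Low was thus closer over all genes to the low array (0.83) than to the high array (0.73). Over genes above background on 1 array of the normal pair or both, its correlation was 0.60 with the high array and 0.49 with the low array. These genes were chosen on the normal pair itself, 3213 through the low array alone and 202 through the high array alone. The choice shapes both values, so no order is read from them. Groups were kept as labelled.

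The match to Tumor Blood Macrophage Low was not complete. NK cell markers above background numbered 12 of 20 on the high array and 19 of 20 on Tumor Blood Macrophage Low, where background was 9.25. Of all genes 11.2% and 31.1% were above background on these arrays. The median level of the NK cell markers was 10.38 and 12.22. Ncr1 was at 11.12 on the high array and 12.51 on Tumor Blood Macrophage Low, and Eomes at 10.50 and 11.94. Itgam was at 9.83 and 11.85, so that the 2 arrays with an NK profile differed in the gene for CD11b.

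**Figure D4:**
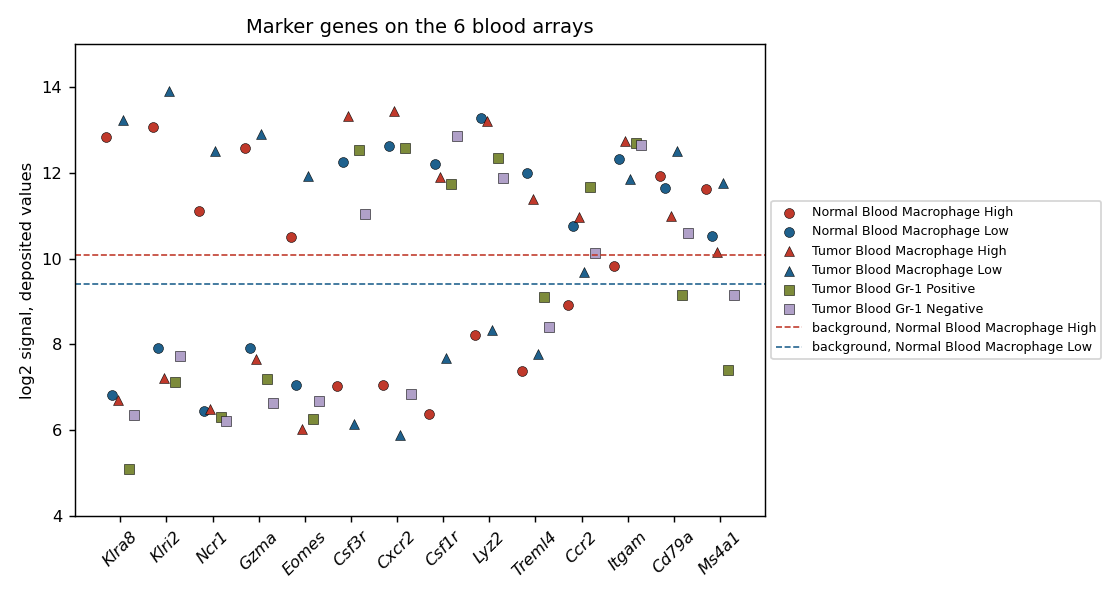
Points give the log2 signal of 14 marker genes on the 6 blood arrays, circles for normal mice, triangles for the blood macrophage arrays of tumor-bearing mice and squares for their Gr-1 sorted arrays. Dashed lines are the background of both normal arrays (10.09 and 9.41). Klra8, Klri2, Ncr1, Gzma and Eomes are high on Normal Blood Macrophage High and Tumor Blood Macrophage Low and low on the remaining 4 arrays.

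**Figure D5:**
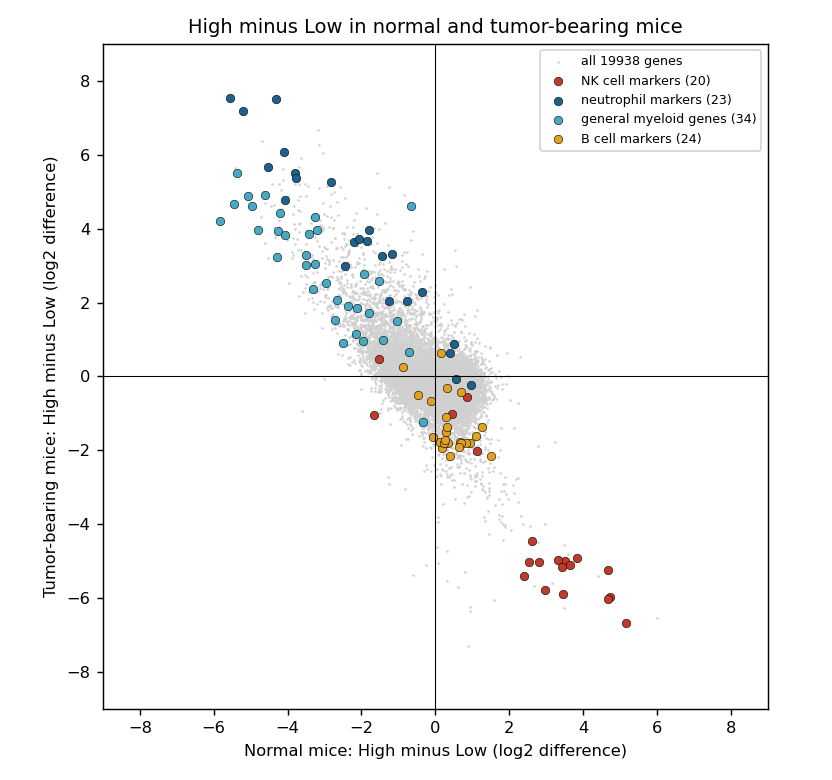
Each point is 1 of 19938 genes, with high minus low (log2 difference, deposited values) in normal mice on the x axis and in tumor-bearing mice on the y axis. Most NK cell markers fall in the lower right, but not S1pr5 and Cd244a, most neutrophil and general myeloid genes fall in the upper left, and Pearson's r over all genes is -0.65.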

How the data were processed

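The authors sorted cells, extracted RNA with TRIzol, amplified it in 2 cycles, hybridised it to Affymetrix Mouse Gene 1.0-ST arrays and made expression values in Expression Console. The submitters' notes name RMA without a version. The authors' deposited table holds log2 values, and the genome build and annotation release are not given in the sources used here. Of 28944 probe sets 21789 name 1 gene, 1621 several and 5534 none. Genes took the brightest of their probe sets over all arrays, which mattered for 999 of 19938 genes, and 21698 of the probe sets with 1 gene matched RefSeq by gene ID with the same symbol.

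Samples were grouped by title. The methods' adjusted p-values cannot be had with 1 array per condition. The members and the 29 gene lists were chosen with earlier results of these data known. Genes were named by rule: Klra8, Csf3r, Ccr2 and Cd79a, the 12 largest differences each way on deposited and on quantile-normalized values among genes above background on their brighter array, up to 8 members of each list, their defining markers, and all killer cell lectin-like receptors. Alternatives were median centring, quantile normalization and cyclic loess over the 12 arrays (limma 3.58.1 in R 4.3.3), the mean of probe sets, only genes above background, values raised to background, and the 90th and 99th percentiles for background. Differences and counts were computed in Python 3.11.15 with numpy 2.4.6 and pandas 2.3.3 and tested on simulated data. Sequences came from RefSeq. One gene of the study is not reported here.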

Additional observations from a re-analysis of the deposited data

Results flagged for a closer look

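High minus low had opposite signs in normal and tumor-bearing mice, by at least 1 on the log2 scale in each, for 10 gene lists and 3 of the 4 leading marker genes. With 1 array per condition the difference between normal and tumor-bearing mice was not tested. Median log2 differences in normal mice were 3.15 for NK cell markers, 3.05 for killer cell lectin-like receptors, -2.06 for neutrophil markers, -2.06 for classical monocyte markers, -2.03 for nonclassical monocyte markers and -3.23 for general myeloid genes. They were -1.71 for cytokine receptors, -1.79 for Toll-like receptors and pattern recognition, -1.19 for interferon-stimulated genes and -1.28 for immediate early and stress genes. In tumor-bearing mice the same medians were -5.03, -4.53, 3.66, 3.81, 1.53, 3.03, 1.18, 2.42, 1.34 and 1.55. This size was lost after other scalings for cytokine receptors (0.93 in tumor-bearing mice after quantile normalization and -0.64 in normal mice after cyclic loess), and after cyclic loess in normal mice for interferon-stimulated genes (-0.86) and immediate early and stress genes (-0.98). With values raised to background in normal mice, only nonclassical monocyte markers (-1.52) and general myeloid genes (-1.42) among the 10 lists kept it. Toll-like receptors and pattern recognition (0.41) and interferon-stimulated genes (0.63) then turned sign. The median of the killer cell lectin-like receptors was then 0.68, the offset that this step builds in. For single genes the differences in normal mice were 6.00 for Klra8, -5.21 for Csf3r and -1.84 for Ccr2, and Cd79a, at 0.28, did not reach this size.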

How the results depend on the processing

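With 1 array per condition there is no replicate error, and the SD of the log2 differences over olfactory receptor genes, 0.34, served as the yardstick for whether a value moved. Signal over background limits what can be said of dim genes, since 14498 genes were below background on both arrays. Under all alternatives run, the medians of the NK, neutrophil, classical monocyte, general myeloid and B cell lists kept their sign. Not all other lists did.

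Genes at least 2-fold higher numbered 871 on the deposited values, 352 with each array centred on its median, 96 when only genes above background on 1 array or both were counted, and 59 with values raised to background, which also left 433 of 2365 lower. Quantile normalization moved the NK median from 3.15 to 3.57. Cyclic loess moved the NK median to 2.74, the classical monocyte median from -2.06 to -1.27 and the general myeloid median from -3.23 to -2.21. Only members above background on 1 array or both gave -3.77 for neutrophil and -2.53 for classical monocyte markers. Raising values to background, which is 0.68 higher on the high array by construction, gave medians of 0.97 for NK, -0.036 for neutrophil, -0.53 for classical monocyte, -1.42 for general myeloid and 0.68 for B cell markers. Of the 89 genes named in the text that were at least 2-fold apart and above background on the brighter array, it turned the sign of 1, Il1rn (0.074), and no other alternative turned one. Of the 167 such genes in the lists and largest differences it turned 22, and cyclic loess 3. The share of genes above background on the high array was 19.5% with the 90th and 3.87% with the 99th percentile, against 11.2%. The identity of the Klra proteins was not run, since protein sequences were not used here. No paired analysis was possible because each condition has 1 array.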

Other observations

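The Gimap genes, small GTPases of lymphocytes that lie together on chromosome 6, were looked at after their values were seen. Of 8 measured genes 6 were at least 2-fold higher on the high array, 5 of them above background there, where 4.37% and 0.481% of all genes were. Gimap4 was at 12.13 on the high array and 9.89 on the low array, and Gimap3 at 10.76 and 9.03. All 8 were at least 2-fold lower on Tumor Blood Macrophage High than on Tumor Blood Macrophage Low.

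Some genes stood apart on the high array by their margin. Above background there and at least 2-fold above each of the other 11 arrays were 26 genes on the deposited values and 343 after quantile normalization. Hoxa7, a homeobox factor, had the largest margin, at 11.52 on the high array and 9.38 on the next array, and Flnc, encoding filamin C, was at 10.31 and 8.76. Tjp3, a protein of tight junctions, was at 11.64 and 10.20, and Lama5, a laminin chain, at 10.50 and 9.15. These genes were chosen after their values were seen, and some of them, Tjp3 among them, were above background on the low array too. The high array also had the highest background in the series, and the part of low signal in these values was not tested.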
